A study of Mus musculus with 9 samples.

Results

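Labelled cells of the soft callus, taken 6 days after a fracture, were compared with the same kind of cell from intact periosteum, the sheet of connective tissue that covers bone. The comparison is defined by the labels: the 3 pools labelled as fractured and day 6 were set against the 3 pools labelled as unfractured, which are 6 of the 9 arrays of the series. It covers all 10073 genes with a probe detected on 3 or more of the 9 arrays. Genes detected in 1 group alone thus entered through the pools where they were high. All mice were αSMACreERT2/Ai9 on the B6;129S6 background and had 2 doses of tamoxifen at 75 µg per g. The promoter of alpha smooth muscle actin, a gene of contractile cells of vessel walls and of mesenchymal progenitors, drives a recombinase that works only after tamoxifen, and the Ai9 reporter then marks those cells and all their descendants with the red protein tomato. The day 6 pools held tomato-positive cells of 4, 8 and 4 animals, aged 3 to 5.5 months, from tibial periosteum and soft callus. The unfractured pools held such cells of 9, 8 and 9 animals, aged 4 to 5.5 months, from tibial periosteum 2 days after tamoxifen. Of the 3 pools of a group 2 were of male mice and 1 of females. No unfractured pool was taken as late as day 6, so fracture and the time since tamoxifen cannot be told apart. The remaining 3 arrays, from fractures at day 2, held tomato-positive cells of 8, 8 and 7 animals aged 2 to 5.5 months. The lower age is that of replicate 1, whose mice spanned 2 to 5 months, and no mouse of the other groups was under 3 months. These arrays entered the estimate of the spread, and their levels are given beside those of the groups compared.

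A fracture of a long bone heals largely through cartilage. Progenitors of the periosteum become chondrocytes, which lay down a matrix of type II collagen and aggrecan, then enlarge, switch to type X collagen and give way to bone. Sox9 starts the chondrocyte programme, and a loop between Indian hedgehog and the receptor for parathyroid hormone-related protein paces the enlargement.

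Some pools stood apart before any gene was tested. Transcripts of macrophages were high in 1 male pool of each group, namely day 6 replicate 1, unfractured replicate 3 and day 2 replicate 1, called leukocyte-rich below. The mean log2 intensity of 20 macrophage genes was 10.72, 7.89 and 8.26 at day 6, against 7.55, 6.85 and 11.02 in unfractured pools, and all 20 were detected in both groups. For 21 neutrophil genes it was 10.77, 8.34 and 8.69 at day 6, against 11.01, 8.88 and 11.17 in unfractured pools. Neutrophil genes were thus about as high in unfractured replicate 1 as in replicate 3, and the name follows the macrophage genes. The share of probes detected was 52.1% to 54.5% at day 6, against 40.4% to 50.7% in unfractured pools (exact two-sided permutation test, p = 0.1, the smallest that 3 against 3 allow). Values without the 3 leukocyte-rich arrays are therefore given beside the main ones. Nothing says that the pools of a group came from separate litters or days beyond the animals in them, so p-values measure the spread between these pools, which 3 arrays per group estimate coarsely.

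Of the 10073 genes, 221 rose at day 6 (2.19%) and 63 fell (0.625%) relative to unfractured periosteum, 2.82% in all, at a limma p-value adjusted over all genes under 0.05. Every one of the 284 had day 6 pools that all lay on the same side of the unfractured pools, which was so for 14.2% of all genes above and 11.8% below. Of the genes that rose, 71 were not detected in any unfractured pool, and 31 of those were not detected at day 2 either. Those 31 could enter the comparison only through the day 6 arrays, where they were high. Over all 10073 genes, 538 were detected at day 6 but in no unfractured pool, and 123 were detected in unfractured pools but in no day 6 pool. Rises reached further than falls: 60 genes rose more than 8-fold by the fit and 6 fell that far. Without the 3 leukocyte-rich arrays 1652 genes rose (16.4%) and 1416 fell (14.1%), 30.5% in all, and these included all 284. The count fell to 53 without day 6 replicate 2, to 54 without day 6 replicate 3, to 123 without unfractured replicate 1 and to 108 without unfractured replicate 2, and grew to 1568 without unfractured replicate 3. It was 181 without day 2 replicate 2 and 174 without day 2 replicate 3. When arrays were scaled by their medians in place of quantile normalisation, 263 genes rose and 7 fell, with the median of all genes at 0.71 in place of 0.04 on the log2 scale. The division into rises and falls, and each fall below, is thus relative to the bulk of the genes.

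**Figure D1:**
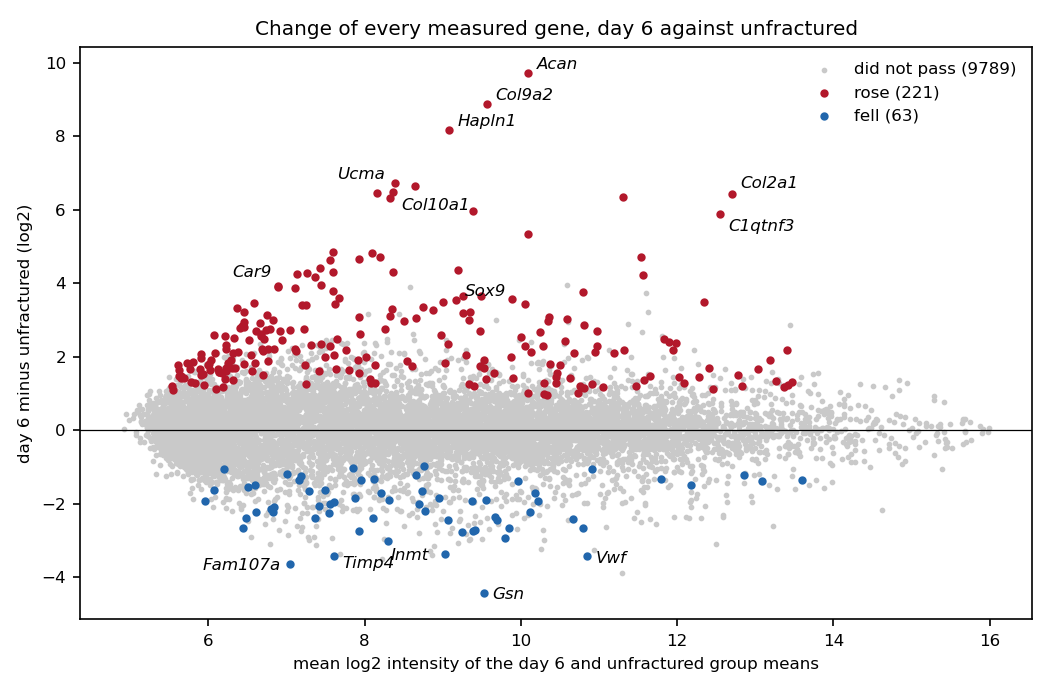
Each point is 1 of 10073 genes, with the mean log2 intensity of both groups on the horizontal axis and the day 6 minus unfractured difference in log2 on the vertical axis; 221 genes that rose are red and 63 that fell are blue. The rises reach 9.72 for Acan, and the largest fall is -4.44 for Gsn.

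Cartilage matrix genes made up the top of the list of rises. All 6 measured cartilage collagens rose, with a median difference of 5.10 on the log2 scale (4.63 with undetected genes at their bound), as did 9 of the 19 measured proteoglycans and other cartilage matrix proteins. Over all genes the median was 0.04. Without the leukocyte-rich arrays the collagen median was 5.67, and between the leukocyte-rich day 6 and unfractured pools alone it was 4.63.

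Acan encodes aggrecan, the large proteoglycan that holds water in cartilage. It had log2 intensities of 14.84, 14.92 and 15.09 at day 6, against 4.86, 5.70 and 5.14 in unfractured pools, where no pool detected it. The day 6 pools lay within a narrow band far above every unfractured pool, and Acan was at least 449-fold higher (adjusted p = 4.21e-05). At day 2 its levels were 9.59, 9.28 and 7.52, between the other groups, and day 6 exceeded day 2 by 6.16 ± 0.50 (adjusted p = 6.14e-04) on the log2 scale. Over all genes 132 rose (1.31%) and 11 fell (0.109%) at day 6 against day 2, 1.42% in all, a comparison that uses the same day 6 arrays. Values after ± are standard errors of the fit, with 3 pools per group, and differences are in log2 throughout. Hapln1 encodes the link protein that ties aggrecan to hyaluronan. Its log2 intensities were 13.03, 13.21 and 13.23 at day 6, against 4.96, 5.12 and 4.93 in unfractured pools, again with no overlap and no detection in intact periosteum. Hapln1 was at least 129-fold higher (adjusted p = 9.45e-07), and day 6 exceeded day 2 by 7.47 ± 0.25 (adjusted p = 1.67e-06). Col9a2, a chain of the type IX collagen that coats type II fibrils, had 13.48, 14.21 and 14.32 at day 6, against 5.15, 4.99 and 5.24 in unfractured pools. It was at least 233-fold higher (adjusted p = 9.45e-07), and relative to day 2, where it stayed undetected, at least 335-fold higher (adjusted p = 1.67e-06).

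The promoters of these 3 genes are shown because they led the rises. Each window runs from 250 bases before to 50 after the first RefSeq start listed for the gene, on GRCm38.p6, at chr7:79052976-79053275, plus strand for Acan, chr13:89540386-89540685, plus strand for Hapln1 and chr4:121039316-121039615, plus strand for Col9a2. Capitals mark ACAAT, the core letters bound by SOX proteins, searched on both strands.
Acan: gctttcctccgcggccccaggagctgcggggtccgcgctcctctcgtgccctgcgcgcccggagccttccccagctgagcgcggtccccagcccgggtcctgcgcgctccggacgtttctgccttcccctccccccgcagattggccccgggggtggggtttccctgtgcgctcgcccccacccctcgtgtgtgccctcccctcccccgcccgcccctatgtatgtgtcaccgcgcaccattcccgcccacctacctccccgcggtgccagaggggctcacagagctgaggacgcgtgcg
Hapln1: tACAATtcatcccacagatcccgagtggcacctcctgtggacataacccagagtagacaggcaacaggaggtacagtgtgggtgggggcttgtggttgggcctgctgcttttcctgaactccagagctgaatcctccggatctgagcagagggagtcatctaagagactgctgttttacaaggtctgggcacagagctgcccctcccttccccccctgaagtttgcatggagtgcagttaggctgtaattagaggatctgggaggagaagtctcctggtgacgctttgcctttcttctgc
Col9a2: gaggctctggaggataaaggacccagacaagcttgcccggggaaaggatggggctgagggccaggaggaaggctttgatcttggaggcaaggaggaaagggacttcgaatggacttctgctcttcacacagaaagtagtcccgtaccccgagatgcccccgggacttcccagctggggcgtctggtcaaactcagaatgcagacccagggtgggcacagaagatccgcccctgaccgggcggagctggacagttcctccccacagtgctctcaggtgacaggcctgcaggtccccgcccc

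Of the 15 cartilage collagens and matrix proteins that rose, 12 had a promoter in the RefSeq table, and 3 of these windows held ACAAT, namely those of Hapln1, Cspg4 and Hapln3. The share over all 27025 promoters was 31.6%. The runs printed for Acan and Col9a2 have no match, and that of Acan is 74.0% G and C.

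Col2a1, the main collagen of cartilage, had log2 intensities of 16.02, 15.72 and 16.0003 at day 6, against 8.19, 9.24 and 11.06 in unfractured pools. It was detected in all pools of both groups, and its 3 day 6 pools still lay above all unfractured pools, with a difference of 6.42 ± 1.19 (adjusted p = 0.0258). The raw intensity of its probe at day 6 was 96.1% to 98.2% of the brightest probe on the same array, close to the top of the measured range. Levels at day 2 were 10.75, 6.82 and 5.77, and day 6 exceeded them by 8.13 ± 1.19 (adjusted p = 0.0136). Col10a1, the collagen of enlarged chondrocytes, had 10.33, 12.14 and 12.36 at day 6, against 5.44, 4.74 and 5.18 in unfractured pools, where no pool detected it. Its level was lowest in the leukocyte-rich day 6 pool, and it was at least 44.2-fold higher (adjusted p = 0.0126). Day 2 pools had 8.46, 4.79 and 4.77, high only in the leukocyte-rich one, and the difference from day 2 was 5.60 ± 0.96 (adjusted p = 0.0273). Among the remaining collagens, Col9a1 differed by 3.79 ± 0.64 (adjusted p = 0.0189), Col27a1 by 3.64 ± 0.28 (adjusted p = 4.45e-04) and Col11a1 by 3.22 ± 0.66 (adjusted p = 0.0391). The other 2 probes of Col11a1 gave 2.47 and 0.25 and did not pass (adjusted p = 0.0656 and 0.748). With 1 pool left out in turn, the threshold was missed for some calls, those of Col2a1 and Col11a1 without day 6 replicate 1 or unfractured replicate 1, those of Col2a1, Col10a1, Col9a1 and Col11a1 without day 6 replicate 2 or 3 or unfractured replicate 2, and that of Col11a1 without day 2 replicate 2 or 3. The highest adjusted p among these fits was 0.122 for Col2a1, 0.0754 for Col10a1, 0.0984 for Col9a1 and 0.18 for Col11a1. 

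Matn1 is an adaptor that links collagen and aggrecan, and its log2 intensities were 9.19, 12.53 and 12.73 at day 6, against 5.61, 4.80 and 5.08 in unfractured pools. No unfractured or day 2 pool detected it, and it was at least 40.5-fold higher (adjusted p = 0.00652). Ucma, a small secreted protein of young chondrocytes, was at least 48.8-fold higher (adjusted p = 1.13e-05), and Mia, a secreted protein known from melanoma and cartilage, was at least 37.9-fold higher (adjusted p = 7.05e-04). Both were also undetected at day 2, against which Matn1 was at least 58.3-fold higher (adjusted p = 0.00656), Ucma at least 70.3-fold higher (adjusted p = 8.72e-06) and Mia at least 54.6-fold higher (adjusted p = 8.19e-04). Scrg1, first described in scrapie-infected brain, was detected in intact periosteum and differed by 6.64 ± 0.43 (adjusted p = 1.53e-04), and day 6 exceeded day 2 by 6.19 ± 0.43 (adjusted p = 3.25e-04). Clec3a, a cartilage lectin, was at least 9.9-fold higher (adjusted p = 0.00652). Cspg4, a membrane proteoglycan also used as a pericyte marker, differed by 1.98 ± 0.35 (adjusted p = 0.0228), and Hapln3, a link protein, was at least 1.61-fold higher (adjusted p = 0.0334). Single pools decided some calls, those of Cspg4 and Hapln3 without day 6 replicate 2 or 3 or unfractured replicate 2 and that of Hapln3 without unfractured replicate 1 or day 2 replicate 3. Their adjusted p reached 0.129 for Cspg4 and 0.174 for Hapln3. Scaling by medians ended the call of Hapln3.

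Members of the matrix list that did not pass ran both ways. Matn4, another matrilin, had 12.78, 13.80 and 13.82 at day 6, against 11.36, 10.03 and 7.81 in unfractured pools, a difference of 3.73 ± 0.82 (adjusted p = 0.0517) that passed without the leukocyte-rich arrays (adjusted p = 0.0129). Comp, a pentameric adaptor of cartilage and tendon, had 12.32, 13.41 and 13.54 at day 6, against 11.61, 10.77 and 9.21 in unfractured pools, a difference of 2.56 ± 0.62 (adjusted p = 0.0657). Cytl1, a secreted factor of cartilage and progenitors, lay lower in all day 6 pools, with 6.98, 6.87 and 8.04 at day 6, against 11.46, 10.10 and 8.72 in unfractured pools, and its difference of -2.80 ± 0.64 (adjusted p = 0.0575) did not pass either.

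**Figure D2:**
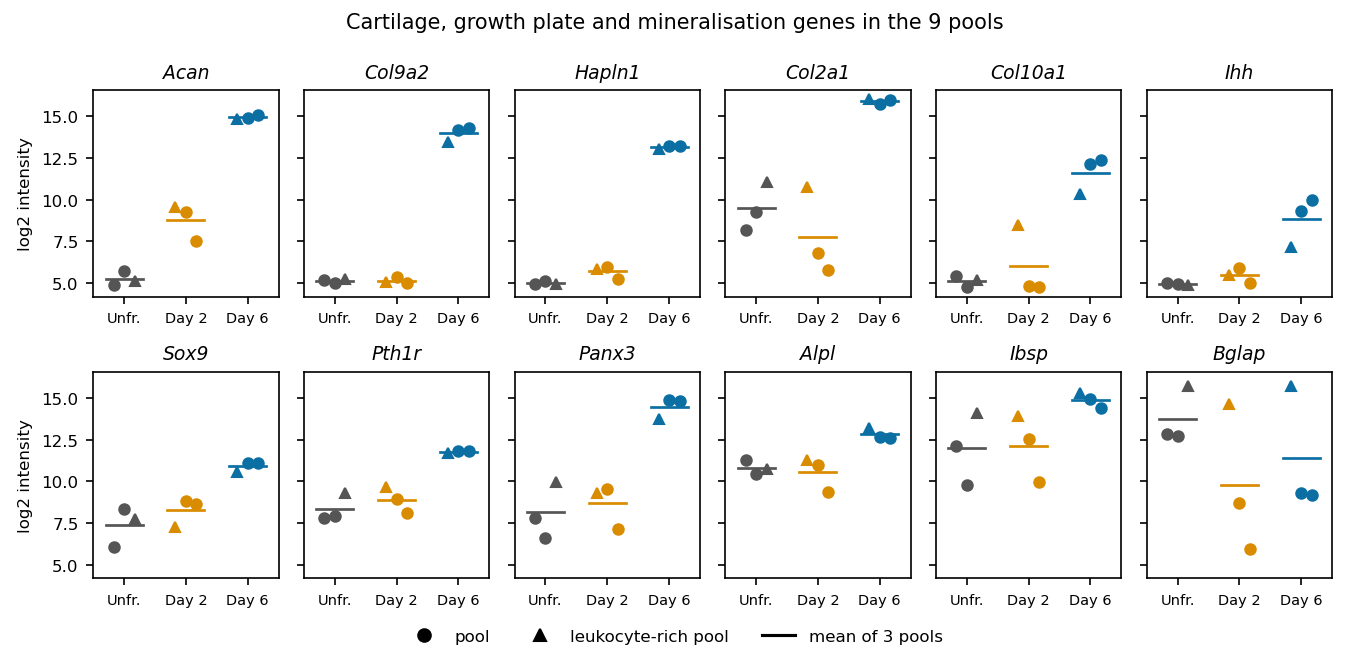
Log2 intensity of 12 genes in the 9 pools, with unfractured, day 2 and day 6 pools from left to right, a triangle for each leukocyte-rich pool and a bar for the mean of 3 pools. Acan, Col9a2 and Hapln1 sit near 5 in unfractured pools and above 13 in all day 6 pools, while Bglap at day 6 splits into 15.72 in the leukocyte-rich pool and 9.29 and 9.20 in the others.

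Of 13 measured chondrocyte transcription factors 2 rose and none fell, and 11 did not pass. Sox9, the factor that starts the chondrocyte programme, had 10.58, 11.12 and 11.13 at day 6, against 6.07, 8.36 and 7.77 in unfractured pools, and day 6 lay above by 3.54 ± 0.61 (adjusted p = 0.0208). Its day 2 levels of 7.27, 8.84 and 8.67 were close to those of intact periosteum. Foxa3, a forkhead factor that acts with Foxa2 in enlarging chondrocytes, was at least 13.2-fold higher (adjusted p = 0.00103) and at day 2 was not detected. Shox2, a limb homeobox factor, and Trps1, a zinc finger repressor of the growth plate, lay above intact periosteum in all day 6 pools without passing, by 1.38 ± 0.35 (adjusted p = 0.0738) and 1.42 ± 0.43 (adjusted p = 0.112).

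Of 7 measured genes of the hedgehog and PTHrP loop 2 rose, the ligand Ihh and the receptor Pth1r, where 2.19% of all genes rose. None of the 7 fell at the threshold, but at an unadjusted p under 0.05, 3 were lower and 2 higher (8.94% and 12.0% of all genes). The list median was 0.23, and 3 of the 7 had a negative difference. Ihh had 7.18, 9.35 and 9.96 at day 6, against 5.02, 4.95 and 4.86 in unfractured pools, where it was not detected, and was at least 6.44-fold higher (adjusted p = 0.0167). Its day 6 level was lowest in the leukocyte-rich pool, and relative to day 2 the difference was 3.37 ± 0.62 (adjusted p = 0.0373). Pth1r had 11.68, 11.83 and 11.80 at day 6, against 7.82, 7.91 and 9.30 in unfractured pools, a difference of 3.43 ± 0.48 (adjusted p = 0.00984), and exceeded day 2 by 2.87 ± 0.48 (adjusted p = 0.0245). Its 3 day 6 pools lay within a narrow band, and its other 2 probes passed as well. When each pool was dropped in turn, the fit lost some calls, those of Sox9, Ihh and Pth1r without day 6 replicate 2 or 3 and that of Ihh without unfractured replicate 1 or 2. Adjusted p-values in those fits reached at most 0.108 for Sox9, 0.0916 for Ihh and 0.0629 for Pth1r.

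Fgfr3, the FGF receptor that restrains growth plate chondrocytes, had 9.14, 8.35 and 8.36 at day 6, against 6.14, 6.36 and 6.31 in unfractured pools, a difference of 2.35 ± 0.31 (adjusted p = 0.00696). Day 2 pools did not detect it, and relative to them it was at least 7.99-fold higher (adjusted p = 7.32e-04). Fgfrl1, a related receptor without a kinase domain, differed by 3.07 ± 0.34 (adjusted p = 0.00258), and Mdk, the heparin-binding growth factor midkine, by 2.18 ± 0.38 (adjusted p = 0.022); these are the 3 of 17 measured genes of the FGF list that rose. Gdf5, a ligand of the BMP family that marks forming joints and early cartilage, was at least 3.16-fold higher (adjusted p = 7.05e-04). Bmp4, another BMP ligand, went the other way, with 9.55, 8.82 and 8.61 at day 6, against 11.76, 11.64 and 10.30 in unfractured pools. All day 6 pools lay below all unfractured pools, and the difference was -2.24 ± 0.42 (adjusted p = 0.0274). These were the only 2 of 23 measured BMP genes to pass. Frzb, a secreted Wnt inhibitor of cartilage, had 9.77, 10.004 and 10.27 at day 6, against 4.97, 5.34 and 5.21 in unfractured pools and was at least 14.6-fold higher (adjusted p = 1.18e-04), and relative to day 2 at least 21.1-fold higher (adjusted p = 1.38e-04). Rspo3, which raises Wnt signalling, differed by 2.18 ± 0.33 (adjusted p = 0.0142). The other 29 of 31 Wnt genes did not pass; among them the inhibitor Sfrp1 differed by 2.94 ± 0.66 (adjusted p = 0.053) and the receptor Ror2 by 1.93 ± 0.44 (adjusted p = 0.0564). Inhba, the activin A chain, differed by 1.48 ± 0.32 (adjusted p = 0.0483). Leaving out 1 pool ended some calls, that of Inhba without day 6 replicate 1, those of Mdk, Bmp4, Rspo3 and Inhba without day 6 replicate 2 or 3, those of Bmp4 and Inhba without unfractured replicate 1 or day 2 replicate 3, those of Mdk, Bmp4 and Inhba without unfractured replicate 2, and that of Bmp4 without day 2 replicate 2. Over the pools left out in turn, the highest adjusted p was 0.122 for Mdk, 0.138 for Bmp4, 0.0896 for Rspo3 and 0.207 for Inhba. Under median scaling the threshold was missed by the call of Bmp4.

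Some of the genes that build and sulfate the sugar chains of proteoglycans rose. Of 32 measured members of that list 7 rose and none fell, with a median difference of 0.53, and 25 did not pass. Without the leukocyte-rich arrays 17 rose and 1 fell, against 16.4% and 14.1% of all genes, and between the leukocyte-rich pools the median was 0.10. Sulfate enters the cell, is activated, is moved to the chain and its by-product is cleared, and the list had risen members at each step. Slc26a2, the sulfate transporter of chondrocytes, had 8.49, 7.32 and 6.92 at day 6, against 5.08, 5.04 and 5.10 in unfractured pools and was at least 2.7-fold higher (adjusted p = 0.0127). Papss2, which makes the active sulfate donor, differed by 3.34 ± 0.59 (adjusted p = 0.0223), and Chst11, a chondroitin sulfotransferase, by 2.16 ± 0.34 (adjusted p = 0.0158). Bpnt2, the Golgi phosphatase that clears the spent donor, differed by 1.41 ± 0.31 (adjusted p = 0.0487). On the chain itself, B4galt7, which adds a linker sugar, differed by 1.92 ± 0.30 (adjusted p = 0.0165), the chondroitin synthase Chsy1 by 2.48 ± 0.35 (adjusted p = 0.00984), and Extl1, a heparan sulfate transferase, was at least 9.55-fold higher (adjusted p = 0.001). A second probe of Chsy1 gave 1.65 and did not pass (adjusted p = 0.0807). Outside the list, Slc13a4, another sulfate transporter, was at least 4.55-fold higher (adjusted p = 0.00214), and Gal3st1, a sulfotransferase of glycolipids, was at least 3.25-fold higher (adjusted p = 0.00131). With 1 pool left out in turn, the threshold was missed for some calls, those of Papss2 and Bpnt2 without day 6 replicate 1, those of Slc26a2, Papss2, Chst11, Bpnt2, B4galt7 and Chsy1 without day 6 replicate 2, those of Papss2, Chst11, Bpnt2, B4galt7 and Chsy1 without day 6 replicate 3, those of Bpnt2 and B4galt7 without unfractured replicate 1, those of Slc26a2, Papss2 and Bpnt2 without unfractured replicate 2, and that of Bpnt2 without day 2 replicate 2 or 3. The highest adjusted p among these fits was 0.0589 for Slc26a2, 0.108 for Papss2, 0.0945 for Chst11, 0.21 for Bpnt2, 0.0951 for B4galt7 and 0.0672 for Chsy1. With arrays scaled by medians the fit lost the call of Bpnt2.

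Enzymes that modify and crosslink collagen chains leaned up. Of 24 measured members 8 rose and none fell, with a median of 1.26, and in 19 of the 24 all day 6 pools lay above all unfractured pools, against 14.2% of all genes. Plod2, the lysyl hydroxylase of the ends of collagen chains, had 13.19, 11.61 and 12.19 at day 6, against 8.91, 9.77 and 10.21 in unfractured pools, a difference of 2.70 ± 0.46 (adjusted p = 0.0191). Of the other lysyl hydroxylases, Plod1 differed by 1.26 ± 0.27 (adjusted p = 0.0497) and Plod3 by 1.34 ± 0.27 (adjusted p = 0.0385). P4ha3 and P4ha2, subunits of prolyl 4-hydroxylases, differed by 2.91 ± 0.51 (adjusted p = 0.0223) and 2.30 ± 0.50 (adjusted p = 0.0493). P3h1, which hydroxylates proline in type I and II collagen, had 11.34, 11.24 and 11.25 at day 6, against 7.65, 8.62 and 9.92 in unfractured pools, a difference of 2.54 ± 0.48 (adjusted p = 0.0291), and the related P3h4 differed by 2.30 ± 0.32 (adjusted p = 0.00984). Loxl2, an oxidase that crosslinks collagen, differed by 1.83 ± 0.34 (adjusted p = 0.0258), and its relative Loxl4 by 2.11 ± 0.49 (adjusted p = 0.0595) without passing. Single pools decided some calls, those of Plod1, Plod3, P4ha3, P4ha2 and P3h1 without day 6 replicate 1, those of Plod1, Plod3, P4ha3, P4ha2, P3h1, P3h4 and Loxl2 without day 6 replicate 2, those of Plod2, Plod1, Plod3, P4ha3, P4ha2, P3h1 and Loxl2 without day 6 replicate 3 or unfractured replicate 1 or 2, those of Plod1, Plod3, P4ha2 and P3h1 without day 2 replicate 2, and those of Plod1, Plod3, P4ha2, P3h1 and Loxl2 without day 2 replicate 3. Their adjusted p reached 0.0951 for Plod2, 0.21 for Plod1, 0.194 for Plod3, 0.107 for P4ha3, 0.194 for P4ha2, 0.129 for P3h1, 0.0652 for P3h4 and 0.14 for Loxl2. Median scaling ended the call of Plod1.

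The export machinery that carries collagen held 1 call. Of 42 measured genes of the secretory pathway and unfolded protein response 1 rose, Ssr2 of the translocon, by 1.504 ± 0.28 (adjusted p = 0.0287), and none fell, with a median of 0.56. At an unadjusted p under 0.05, 14 were higher and none lower, where 12.0% of all genes were higher and 8.94% lower. Of the 42, 37 had a positive difference, and in 16 all day 6 pools lay above all unfractured pools, against 14.2% of all genes. Without the leukocyte-rich arrays 22 rose and 2 fell, against 16.4% and 14.1% of all genes, and between the leukocyte-rich pools the median was 0.21. Creb3l2, a factor that raises secretory capacity in chondrocytes, had 10.08, 10.69 and 10.71 at day 6, against 8.71, 9.22 and 8.93 in unfractured pools, a difference of 1.54 ± 0.37 (adjusted p = 0.066) that did not pass. Sec61a1, the channel of the translocon, had 12.08, 11.85 and 11.71 at day 6, against 10.23, 10.68 and 11.11 in unfractured pools, and 1.21 ± 0.28 (adjusted p = 0.0569). The call of Ssr2 ended without day 6 replicate 1 or 2 or 3 or unfractured replicate 1 or 2 or day 2 replicate 2 or 3 (adjusted p up to 0.136).

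Some matrix genes outside the cartilage lists rose. Of 22 measured fibrillar and microfibrillar matrix genes 2 rose, the microfibril proteins Emilin1, by 2.10 ± 0.29 (adjusted p = 0.00917), and Fbn2, which was at least 1.66-fold higher (adjusted p = 0.00984). Col1a1, the main collagen of bone and fibrous tissue, had 15.99, 15.56 and 15.53 at day 6, against 14.79, 14.44 and 15.41 in unfractured pools, a difference of 0.82 ± 0.32 (adjusted p = 0.199) that did not pass; its raw intensity at day 6 was 89.1% to 93.8% of the brightest probe. None of 13 small leucine-rich proteoglycans passed in limma, and 2 were higher at an unadjusted p under 0.05, near the 12.0% of all genes. Lum, one of them, had 14.52, 15.14 and 15.25 at day 6, against 13.63, 13.71 and 13.81 in unfractured pools. Of 15 matricellular genes 3 rose. Postn, periostin of the periosteum, had 6.75, 8.05 and 7.70 at day 6, against 4.53, 5.37 and 4.89 in unfractured pools, where its probe was not detected, and was at least 2.56-fold higher (adjusted p = 0.0107); relative to day 2 it was at least 3.69-fold higher (adjusted p = 0.014). Tnn, a tenascin of periosteum and osteogenic cells, differed by 4.36 ± 0.76 (adjusted p = 0.021) and Tgfbi, a secreted adhesion protein induced by TGF-beta, by 1.303 ± 0.25 (adjusted p = 0.0288). Nid2, a basement membrane linker, differed by 2.29 ± 0.38 (adjusted p = 0.0189) and was the sole riser of 14 basement membrane genes. Of 27 proteinases and inhibitors Ctsk, the collagen-cleaving cathepsin, rose by 1.17 ± 0.25 (adjusted p = 0.0484), and the inhibitor Timp4 fell. When each pool was dropped in turn, the fit lost some calls, those of Tnn, Tgfbi and Ctsk without day 6 replicate 1, those of Emilin1, Fbn2, Postn, Tnn, Tgfbi, Nid2 and Ctsk without day 6 replicate 2 or 3, those of Tgfbi, Nid2 and Ctsk without unfractured replicate 1, those of Tnn, Tgfbi, Nid2 and Ctsk without unfractured replicate 2, and those of Tgfbi and Ctsk without day 2 replicate 2 or 3. Adjusted p-values in those fits reached at most 0.0665 for Emilin1, 0.069 for Fbn2, 0.0738 for Postn, 0.0989 for Tnn, 0.167 for Tgfbi, 0.107 for Nid2 and 0.199 for Ctsk. Scaling by medians ended the call of Fbn2.

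Genes of enlarged cartilage leaned up, and late osteoblast genes differed between the pools of a group. Of 16 measured hypertrophy and mineralisation genes 2 rose, Col10a1 and Panx3, and in 10 all day 6 pools lay above all unfractured pools, against 14.2% of all genes. Their median was 1.18, with 1.33 without the leukocyte-rich arrays and 1.16 between the leukocyte-rich pools. Panx3, a channel of pre-enlarged chondrocytes and osteoblasts, had 13.76, 14.89 and 14.81 at day 6, against 7.82, 6.63 and 9.95 in unfractured pools, a rise of 6.35 ± 0.89 (adjusted p = 0.00984), and exceeded day 2 by 5.81 ± 0.89 (adjusted p = 0.0162). Alpl, the phosphatase that frees phosphate for mineral, had 13.19, 12.68 and 12.58 at day 6, against 11.31, 10.46 and 10.72 in unfractured pools, a difference of 1.98 ± 0.49 (adjusted p = 0.0681). Ibsp, bone sialoprotein, had 15.28, 14.93 and 14.40 at day 6, against 12.11, 9.80 and 14.12 in unfractured pools, and Sp7, the osteoblast factor osterix, had 11.84, 12.01 and 11.64 at day 6, against 9.73, 8.48 and 11.43 in unfractured pools. In both genes all day 6 pools lay above the unfractured ones, but the leukocyte-rich unfractured pool came close, and neither passed, with differences of 2.86 ± 1.18 (adjusted p = 0.214) and 1.95 ± 0.74 (adjusted p = 0.186). Bglap, osteocalcin of mature osteoblasts, had 15.72, 9.29 and 9.20 at day 6, against 12.87, 12.70 and 15.73 in unfractured pools. Its groups overlapped, with a difference of -2.36 ± 2.37 (adjusted p = 0.61), and in the 6 arrays that were not leukocyte-rich it fell by 3.54 (adjusted p = 0.032). Mmp13, the collagenase of enlarged chondrocytes and osteoblasts, had 15.48, 14.12 and 13.90 at day 6, against 12.79, 11.58 and 14.57 in unfractured pools, with overlap. The summed intensity of the 13 osteoblast-list genes was 182000, 56100 and 45300 at day 6, against 31800, 24400 and 143000 in unfractured pools, highest in the leukocyte-rich pool of each group. The call of Panx3 ended without day 6 replicate 2 or 3 (adjusted p up to 0.0629).

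Most genes of the response to low oxygen did not pass. Of 19 measured hypoxia genes 2 rose, and of 18 glycolysis genes 2, where 2.19% of all genes rose. The list medians were 0.18 and 0.44, against 0.04 over all genes. Car12, a carbonic anhydrase at the cell surface, had 11.26, 10.13 and 10.26 at day 6, against 4.85, 6.24 and 6.44 in unfractured pools, a difference of 4.71 ± 0.51 (adjusted p = 0.00237), and exceeded day 2 by 3.08 ± 0.51 (adjusted p = 0.0235). Car9, a second surface carbonic anhydrase that is a classic target of hypoxia-inducible factors, had 8.96, 8.74 and 8.88 at day 6, against 5.00, 4.67 and 5.13 in unfractured pools, where the probe shown was not detected, and was at least 6.57-fold higher (adjusted p = 4.03e-04). Its other 2 probes gave differences of 1.89 and 0.81 and did not pass (adjusted p = 0.0989 and 0.424). Aldoc, a glycolytic aldolase, had 10.51, 9.02 and 9.37 at day 6, against 5.45, 4.93 and 5.32 in unfractured pools, and was at least 11.2-fold higher (adjusted p = 7.05e-04); relative to day 2 it was at least 16.2-fold higher (adjusted p = 6.14e-04). Pgam1, a mutase further down glycolysis, differed by 1.56 ± 0.27 (adjusted p = 0.0218). Vegfa, the vessel growth factor, had 12.13, 11.61 and 11.53 at day 6, against 11.25, 11.16 and 11.43 in unfractured pools, a difference of 0.48 ± 0.28 (adjusted p = 0.37), and Epas1, which encodes the alpha chain of hypoxia-inducible factor 2, had 6.67, 5.13 and 5.45 at day 6, against 8.84, 8.69 and 7.11 in unfractured pools, lower by a margin that did not pass, at -2.46 ± 0.56 (adjusted p = 0.0558). The call of Pgam1 ended without day 6 replicate 2 or 3 or unfractured replicate 1 or 2 (adjusted p up to 0.0961).

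Promoters of these 4 risers are printed because hypoxia-inducible factors bind the letters ACGTG, which are in capitals here and were searched on both strands. The windows lie at chr4:43506776-43507075, plus strand for Car9, chr11:78322823-78323122, plus strand for Aldoc, chr19:41911621-41911920, plus strand for Pgam1 and chr9:66713436-66713735, plus strand for Car12.
Car9: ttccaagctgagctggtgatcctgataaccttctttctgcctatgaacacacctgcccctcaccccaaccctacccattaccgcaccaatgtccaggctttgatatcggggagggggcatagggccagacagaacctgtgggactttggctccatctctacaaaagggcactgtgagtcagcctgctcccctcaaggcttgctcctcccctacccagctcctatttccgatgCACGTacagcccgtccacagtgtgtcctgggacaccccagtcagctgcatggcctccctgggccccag
Aldoc: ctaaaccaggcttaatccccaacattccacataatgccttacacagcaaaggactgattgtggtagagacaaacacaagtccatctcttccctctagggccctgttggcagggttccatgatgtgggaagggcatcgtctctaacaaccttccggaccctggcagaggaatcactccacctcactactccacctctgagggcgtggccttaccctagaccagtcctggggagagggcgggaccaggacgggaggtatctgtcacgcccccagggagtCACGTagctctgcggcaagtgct
Pgam1: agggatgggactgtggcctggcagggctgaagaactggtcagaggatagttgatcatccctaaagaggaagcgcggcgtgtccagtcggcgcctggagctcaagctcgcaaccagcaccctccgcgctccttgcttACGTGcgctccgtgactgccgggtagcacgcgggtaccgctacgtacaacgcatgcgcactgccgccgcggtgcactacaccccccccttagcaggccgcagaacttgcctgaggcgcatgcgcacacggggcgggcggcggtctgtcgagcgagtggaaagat
Car12: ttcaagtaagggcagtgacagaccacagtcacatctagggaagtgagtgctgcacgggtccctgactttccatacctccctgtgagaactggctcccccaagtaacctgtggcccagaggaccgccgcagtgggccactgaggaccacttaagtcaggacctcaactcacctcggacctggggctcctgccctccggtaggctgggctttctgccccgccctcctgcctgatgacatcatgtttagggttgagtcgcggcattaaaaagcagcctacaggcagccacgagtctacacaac

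The letters occurred in the windows of Car9, Aldoc and Pgam1 and not in that of Car12, and in 19.7% of all 27025 promoters. Counted from the start of the gene, the match begins at position -18 in Car9, at -114 in Pgam1 and at 28 in Aldoc.

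No gene passed in several other lists. None of 40 genes of oxidative phosphorylation passed in limma, with 1 lower and none higher at an unadjusted p under 0.05 and a median of -0.06. None of 17 sterol synthesis genes passed, with a median of 0.68 and 6 higher at an unadjusted p under 0.05 (12.0% of all genes); 16 had a positive difference, and in 8 all day 6 pools lay above all unfractured pools, against 14.2% of all genes. Nor did any gene pass among 15 of the insulin-like growth factor family, 24 of ribosome biogenesis, 18 aminoacyl-tRNA synthetases, 22 immediate early genes or 16 clock genes. In each list at most 3 were higher and at most 5 lower at an unadjusted p under 0.05, against 12.0% and 8.94% of all genes. The 5 lower were ribosome biogenesis genes, of which none was higher, with a list median of -0.24. In 7 of these 24 all day 6 pools lay below all unfractured pools, against 11.8% of all genes. Of the 22 immediate early genes, 21 had a negative difference, with a median of -0.54 and 3 lower at that p (8.94% of all genes). Of 23 genes for ion and pH handling 4 rose and 1 fell. Beside Car9 and Car12 these were Trpv4, a calcium channel of chondrocytes, which differed by 3.27 ± 0.30 (adjusted p = 9.10e-04) and whose other 2 probes did not pass (0.83 and 0.63), Kcnma1, a potassium channel, by 1.77 ± 0.34 (adjusted p = 0.0303), and Slc9a3r1, a scaffold of transporters, which fell with a difference of -2.38 ± 0.50 (adjusted p = 0.0431). Leaving out 1 pool ended some calls, that of Kcnma1 without day 6 replicate 1, those of Kcnma1 and Slc9a3r1 without day 6 replicate 2 or 3 or unfractured replicate 1 or 2, and that of Slc9a3r1 without day 2 replicate 2 or 3. Over the pools left out in turn, the highest adjusted p was 0.153 for Kcnma1 and 0.196 for Slc9a3r1. Under median scaling the threshold was missed by the call of Slc9a3r1.

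**Figure D3:**
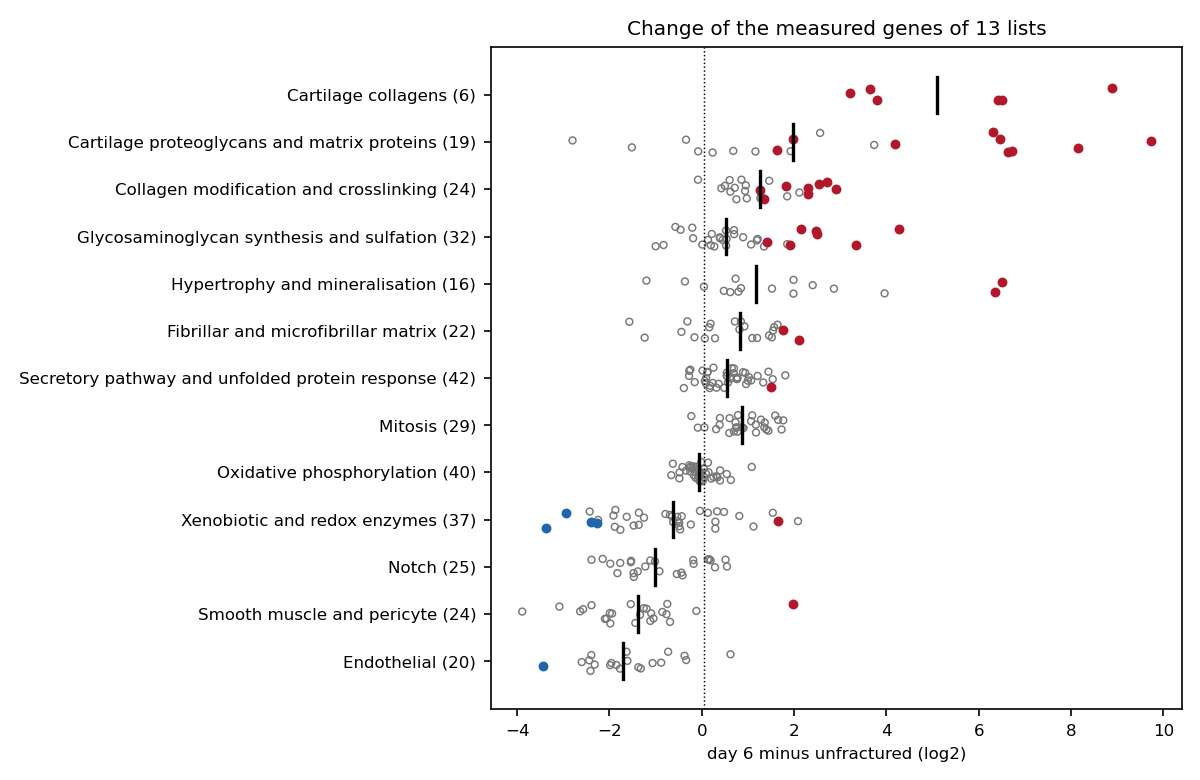
Each circle is a measured gene of 1 of 13 lists, placed by its day 6 minus unfractured difference in log2; filled red circles rose, filled blue circles fell, open circles did not pass, black bars are list medians and the dotted line is the median of all genes, 0.04. The 6 cartilage collagens all lie above 3, while the medians of the endothelial and the smooth muscle and pericyte lists lie at -1.70 and -1.39 with 2 filled circles between them.

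Several of the largest rises belonged to no list. Rtl3, a gene derived from a retrotransposon, had 12.29, 12.16 and 12.68 at day 6, against 5.43, 7.37 and 6.43 in unfractured pools, a difference of 5.97 ± 0.56 (adjusted p = 0.00101), and exceeded day 2 by 5.21 ± 0.56 (adjusted p = 0.00206). C1qtnf3, a secreted protein with a C1q domain known from growth cartilage, had 15.08, 15.64 and 15.73 at day 6, against 9.39, 10.37 and 9.08 in unfractured pools. All 3 of its probes passed, the one shown by 5.87 ± 0.44 (adjusted p = 4.20e-04), and day 6 exceeded day 2 by 5.55 ± 0.44 (adjusted p = 6.09e-04); its raw intensity reached 95.7% of the brightest probe. Moxd1, a copper monooxygenase related to dopamine beta-hydroxylase, had 12.43, 12.91 and 12.95 at day 6, against 8.09, 8.34 and 5.85 in unfractured pools, a difference of 5.34 ± 0.68 (adjusted p = 0.00652), and 5.35 ± 0.68 (adjusted p = 0.00641) against day 2. Capn6, a calpain without protease activity that binds microtubules, had 13.28, 14.11 and 14.28 at day 6, against 8.83, 9.36 and 9.37 in unfractured pools, a difference of 4.70 ± 0.37 (adjusted p = 4.97e-04), and 3.48 ± 0.37 (adjusted p = 0.00206) against day 2. Ncmap, a membrane protein of Schwann cells, was at least 20.7-fold higher (adjusted p = 1.18e-04), with 4.85 ± 0.29 (adjusted p = 1.38e-04) against day 2. Ppp1r1b, a phosphatase inhibitor known from dopamine-responsive neurons, was at least 17.3-fold higher (adjusted p = 0.0035) and relative to day 2 at least 24.9-fold higher (adjusted p = 0.0017), though its other 2 probes gave 0.90 and 0.87 and did not pass (adjusted p = 0.0701 and 0.261). In each of these 6 genes the 3 day 6 pools lay above all unfractured and all day 2 pools.

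Further unlisted genes kept their call in all 22 alternative settings. Meltf, an iron-binding protein of the transferrin family, differed by 4.32 ± 0.50 (adjusted p = 0.00335) and Rflna, which binds filamin, was at least 12.1-fold higher (adjusted p = 7.05e-04). Itm2a, a membrane protein of early cartilage, had 13.48, 14.47 and 14.31 at day 6, against 10.12, 10.73 and 10.98 in unfractured pools, a difference of 3.48 ± 0.33 (adjusted p = 0.00103); its second probe gave 0.39 (adjusted p = 0.493). Lpar4, a receptor for lysophosphatidic acid, differed by 3.03 ± 0.39 (adjusted p = 0.00652), Ddah1, which degrades an inhibitor of nitric oxide synthase, by 2.85 ± 0.37 (adjusted p = 0.00652), and Lxn, a carboxypeptidase inhibitor, by 2.36 ± 0.25 (adjusted p = 0.00214). Sema4f, a semaphorin, was at least 7.48-fold higher (adjusted p = 4.97e-04) and Nmu, the neuropeptide neuromedin U, at least 4.49-fold higher (adjusted p = 0.00103). Slc14a1, a urea transporter, was at least 3.45-fold higher (adjusted p = 0.00214), with a second probe at a difference of 0.54 (adjusted p = 0.574). Of markers of other cells, S100b of glia and chondrocytes was at least 1.33-fold higher (adjusted p = 0.0205) as the 1 of 7 Schwann genes to pass, and Lsp1 of leukocytes differed by 1.69 ± 0.28 (adjusted p = 0.0189) as the 1 of 16 pan-leukocyte genes. With 1 pool left out in turn, the threshold was missed for some calls, that of S100b without day 6 replicate 1 and those of S100b and Lsp1 without day 6 replicate 2 or 3 or unfractured replicate 1 or 2. The highest adjusted p among these fits was 0.112 for S100b and 0.111 for Lsp1. With arrays scaled by medians the fit lost the call of S100b.

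Falls were fewer than rises. Gsn, the actin-severing protein gelsolin, had 5.69, 8.22 and 8.00 at day 6, against 12.30, 11.93 and 10.99 in unfractured pools. It fell furthest, by 4.44 ± 0.81 (adjusted p = 0.0256), with 7.62, 9.30 and 10.21 at day 2, between the groups. Fam107a, an actin-associated protein of stress responses, had 5.25, 5.42 and 4.99 at day 6, against 10.005, 8.77 and 7.81 in unfractured pools, and day 6 pools did not detect it, so it was at least 9.73-fold lower (adjusted p = 0.0165). Timp4, an inhibitor of metalloproteinases, had 5.60, 6.29 and 5.81 at day 6, against 10.45, 9.57 and 7.94 in unfractured pools, a difference of -3.42 ± 0.61 (adjusted p = 0.023), and its day 2 levels were 7.76, 9.15 and 8.33. Ch25h, the hydroxylase that makes 25-hydroxycholesterol, had 8.51, 7.66 and 7.87 at day 6, against 10.51, 11.43 and 10.38 in unfractured pools, a difference of -2.76 ± 0.35 (adjusted p = 0.00652). Acer2, a ceramidase, differed by -2.77 ± 0.41 (adjusted p = 0.0124), Myrip, a linker of secretory granules to myosin, by -2.76 ± 0.45 (adjusted p = 0.0183) and Tmem51, a membrane protein, by -2.68 ± 0.52 (adjusted p = 0.031). Lypd2, a small membrane-anchored protein, had 5.25, 5.06 and 5.01 at day 6, against 7.59, 7.68 and 8.07 in unfractured pools, was at least 4.59-fold lower (adjusted p = 0.00258), and was the 1 fall of 63 that passed in all 22 alternative settings. Against day 2, the difference was -1.74 ± 0.81 (adjusted p = 0.458) for Gsn and -2.52 ± 0.61 (adjusted p = 0.109) for Timp4, and neither passed. Single pools decided some calls, that of Timp4 without day 6 replicate 1, those of Gsn, Fam107a, Timp4, Acer2, Myrip and Tmem51 without day 6 replicate 2 or 3, those of Gsn, Timp4, Myrip and Tmem51 without unfractured replicate 1, those of Gsn, Fam107a, Timp4, Myrip and Tmem51 without unfractured replicate 2, those of Gsn and Tmem51 without day 2 replicate 2, and that of Tmem51 without day 2 replicate 3. Their adjusted p reached 0.0951 for Gsn, 0.0935 for Fam107a, 0.114 for Timp4, 0.0774 for Acer2, 0.0951 for Myrip and 0.154 for Tmem51. Median scaling ended the calls of Gsn, Ch25h, Acer2 and Myrip.

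Enzymes of small-molecule metabolism leaned down. Among 37 measured xenobiotic and redox enzymes 4 were called lower and 1 higher. The list had a median of -0.62, and 17 had all day 6 pools below all unfractured pools, against 11.8% of all genes. Under median scaling the list median was 0.34, below the 0.71 of all genes there. Inmt, a methyltransferase of indoles and thioethers, had 6.19, 8.17 and 7.68 at day 6, against 10.80, 10.54 and 10.80 in unfractured pools, a difference of -3.36 ± 0.54 (adjusted p = 0.0166). Its unfractured pools lay within a narrow band, and at day 2 the levels were 7.23, 8.07 and 8.74. Sult1a1, a sulfotransferase of phenols, had 8.84, 8.10 and 8.04 at day 6, against 11.80, 11.45 and 10.59 in unfractured pools, a difference of -2.95 ± 0.48 (adjusted p = 0.0173). The glutathione transferases Gsta3 and Gsta4 fell, with differences of -2.41 ± 0.49 (adjusted p = 0.0389) and -2.27 ± 0.32 (adjusted p = 0.0104), and Gstm1 missed the threshold at -1.91 ± 0.42 (adjusted p = 0.0507). Nqo1, a quinone reductase, was the member that rose, by 1.64 ± 0.28 (adjusted p = 0.0199). When each pool was dropped in turn, the fit lost some calls, that of Gsta3 without day 6 replicate 1 or day 2 replicate 3, those of Sult1a1, Gsta3, Gsta4 and Nqo1 without day 6 replicate 2, those of Inmt, Sult1a1, Gsta3, Gsta4 and Nqo1 without day 6 replicate 3, those of Inmt, Sult1a1 and Gsta3 without unfractured replicate 1, and those of Inmt, Sult1a1, Gsta3 and Nqo1 without unfractured replicate 2. Adjusted p-values in those fits reached at most 0.0738 for Inmt, 0.0962 for Sult1a1, 0.162 for Gsta3, 0.0738 for Gsta4 and 0.116 for Nqo1. Scaling by medians ended the calls of Inmt, Gsta3 and Gsta4.

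Of 25 measured genes on a list of Hox genes and other positional factors, 3 fell and none rose, where 0.625% of all genes fell and 2.19% rose. At an unadjusted p under 0.05, 6 were lower and 3 higher (8.94% and 12.0% of all genes). A positive difference was seen in 10 of the 25. Hoxb4 had 7.74, 6.47 and 6.17 at day 6, against 10.79, 9.91 and 8.73 in unfractured pools, a difference of -3.02 ± 0.58 (adjusted p = 0.0302), and day 2 levels of 7.78, 7.69 and 6.95. Hoxb7 differed by -2.41 ± 0.33 (adjusted p = 0.00984) and Hoxa13 by -2.001 ± 0.37 (adjusted p = 0.0272). Pparg, the master factor of fat cells, had 8.21, 7.78 and 7.71 at day 6, against 9.55, 9.64 and 9.50 in unfractured pools, a difference of -1.66 ± 0.28 (adjusted p = 0.0191), and Pnpla2, the lipase that starts fat breakdown, differed by -2.43 ± 0.50 (adjusted p = 0.0418); these were the 2 of 20 adipocyte and lipid genes that fell. Unc45b, a myosin chaperone of muscle, differed by -2.45 ± 0.47 (adjusted p = 0.0291), while none of 20 skeletal muscle genes passed in limma (2 lower at an unadjusted p under 0.05). Their mean log2 intensity was 6.41, 7.00 and 6.61 at day 6, against 7.07, 9.14 and 6.72 in unfractured pools, high in 1 unfractured pool, and its part in the fall of Unc45b was not tested. Leaving out 1 pool ended some calls, those of Hoxa13 and Pnpla2 without day 6 replicate 1, those of Hoxb4, Hoxb7, Hoxa13, Pparg, Pnpla2 and Unc45b without day 6 replicate 2, those of Hoxb4, Hoxa13, Pparg, Pnpla2 and Unc45b without day 6 replicate 3 or unfractured replicate 2, those of Hoxb4, Pparg, Pnpla2 and Unc45b without unfractured replicate 1, those of Hoxb4, Hoxa13 and Pnpla2 without day 2 replicate 2, and those of Hoxb4, Hoxa13, Pnpla2 and Unc45b without day 2 replicate 3. Over the pools left out in turn, the highest adjusted p was 0.147 for Hoxb4, 0.0612 for Hoxb7, 0.138 for Hoxa13, 0.112 for Pparg, 0.18 for Pnpla2 and 0.148 for Unc45b. Under median scaling the threshold was missed by the calls of Hoxb7, Hoxa13, Pparg, Pnpla2 and Unc45b.

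**Figure D4:**
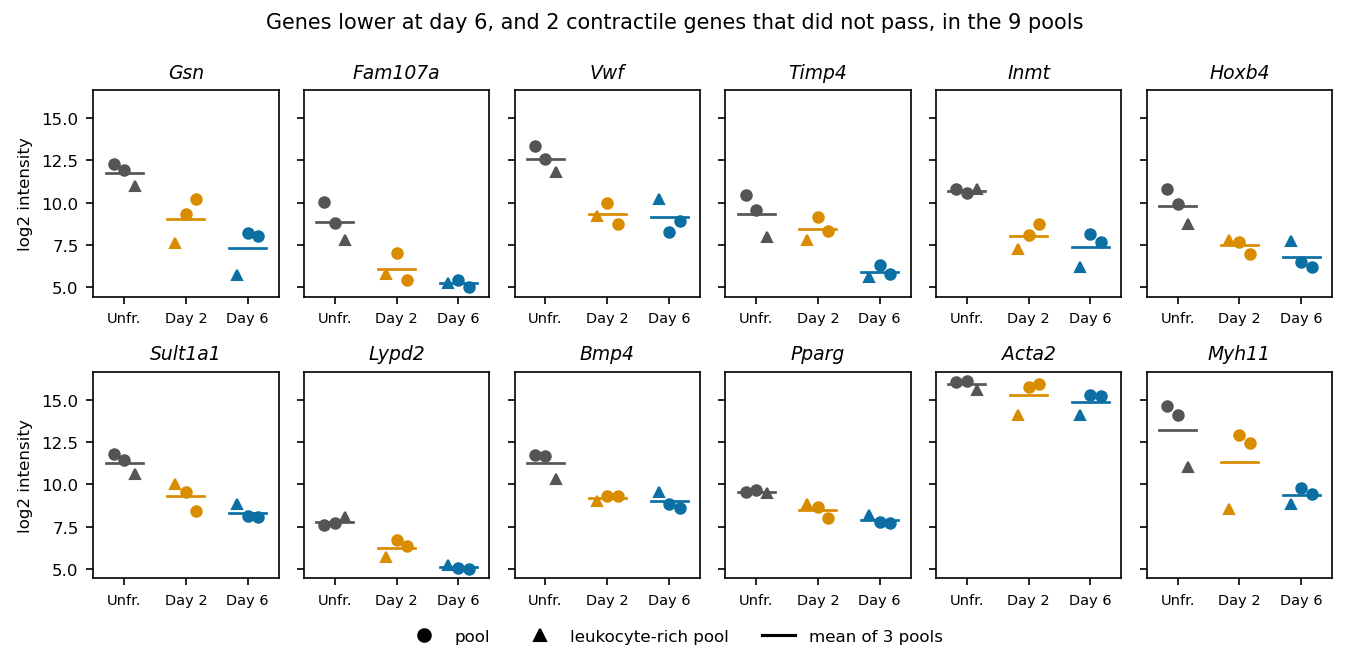
Log2 intensity of 12 genes in the 9 pools, drawn as unfractured, day 2 and day 6 from left to right, with a triangle for each leukocyte-rich pool and a bar for the mean of 3 pools. In all 12 the day 6 pools lie below the unfractured pools; Acta2 and Myh11 did not pass.

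Vessel and contractile transcripts lay low at day 6 in most pools, but the leukocyte-rich unfractured pool had low levels too. The mean log2 intensity of 20 endothelial genes was 10.31, 8.57 and 9.05 at day 6, against 11.41, 11.16 and 10.13 in unfractured pools, with 1 overlapping pair of pools. For 24 smooth muscle and pericyte genes it was 9.36, 9.67 and 9.60 at day 6, against 11.86, 11.48 and 9.78 in unfractured pools, the lowest of which was the leukocyte-rich one. At the threshold 1 endothelial gene fell, and of the contractile list none fell and 1, Cspg4, rose. Without the leukocyte-rich arrays 16 of 20 endothelial and 18 of 24 contractile genes fell, where 14.1% of all genes fell. The medians were -2.68 and -2.24 there, against 0.16 and -0.14 between the leukocyte-rich pools. In bulk samples fewer cells of a type and less RNA per cell cannot be told apart.

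Vwf, the clotting factor made by endothelium, had 10.19, 8.28 and 8.92 at day 6, against 13.35, 12.55 and 11.81 in unfractured pools, a difference of -3.44 ± 0.57 (adjusted p = 0.0189), and was 9.18, 9.98 and 8.76 at day 2. Some genes outside the endothelial list fell as well. Ackr1, a chemokine receptor of venules, fell by 2.68 (adjusted p = 0.0198). Jam2, a junction protein, fell by 2.39 (adjusted p = 0.0258), and 1 of its 3 other probes did not pass. Vegfc, the lymphatic growth factor, fell by 1.94 (adjusted p = 0.019). Itga6, a laminin receptor chain, fell by 1.91 (adjusted p = 0.0347). These 5 genes were named because they fell, and the part of endothelial cells in their falls was not tested. Pecam1, an adhesion protein of endothelium, had 11.31, 7.67 and 8.25 at day 6, against 11.96, 11.74 and 10.48 in unfractured pools, with overlap from the leukocyte-rich day 6 pool. Acta2, whose promoter drives the label, had 14.09, 15.27 and 15.22 at day 6, against 16.07, 16.09 and 15.57 in unfractured pools, all lower at day 6 by a margin that did not pass, -1.05 ± 0.52 (adjusted p = 0.29). It passed without the leukocyte-rich arrays, with -0.83 (adjusted p = 0.0212), and with estimated array weights, with -0.86 (adjusted p = 0.0105). When all probes were fitted, another probe of the gene passed, with -2.15 (adjusted p = 0.0446). That probe was read because it had the smallest p of the gene's probes, a choice that favours passing. The raw intensity of Acta2 was 16.3% to 81.2% of the brightest probe of the array at day 6, against 62.9% and more in unfractured pools, where in replicate 2 it was the brightest probe. Myh11, the myosin of mature smooth muscle, had 8.82, 9.78 and 9.44 at day 6, against 14.64, 14.07 and 11.001 in unfractured pools, a difference of -3.89 ± 1.24 (adjusted p = 0.128). With 1 pool left out in turn, the threshold was missed for some calls, that of Itga6 without day 6 replicate 1, those of Vwf, Ackr1, Jam2, Vegfc and Itga6 without day 6 replicate 2 or 3 or unfractured replicate 1 or 2, that of Jam2 without day 2 replicate 2, and those of Jam2 and Itga6 without day 2 replicate 3. The highest adjusted p among these fits was 0.0984 for Vwf, 0.102 for Ackr1, 0.129 for Jam2, 0.109 for Vegfc and 0.179 for Itga6. With arrays scaled by medians the fit lost the calls of Ackr1, Jam2, Vegfc and Itga6.

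Notch genes, some of them expressed in vessels, had a median of -1.02, and the part of vessel cells in this was not tested. None of 25 passed in limma, with 11 lower and none higher at an unadjusted p under 0.05, against 8.94% and 12.0% of all genes. Without the leukocyte-rich arrays 14 fell and 1 rose, where 14.1% of all genes fell and 16.4% rose. The list median was -1.57 there, against 0.03 between the leukocyte-rich pools. Hes1, a Notch target, had 10.26, 9.58 and 9.46 at day 6, against 11.83, 11.42 and 11.34 in unfractured pools, a difference of -1.77 ± 0.50 (adjusted p = 0.101). Kitl, the niche factor stem cell factor, had 9.82, 8.72 and 8.99 at day 6, against 11.53, 11.31 and 10.14 in unfractured pools, a difference of -1.81 ± 0.47 (adjusted p = 0.0807) that did not pass.

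**Figure D5:**
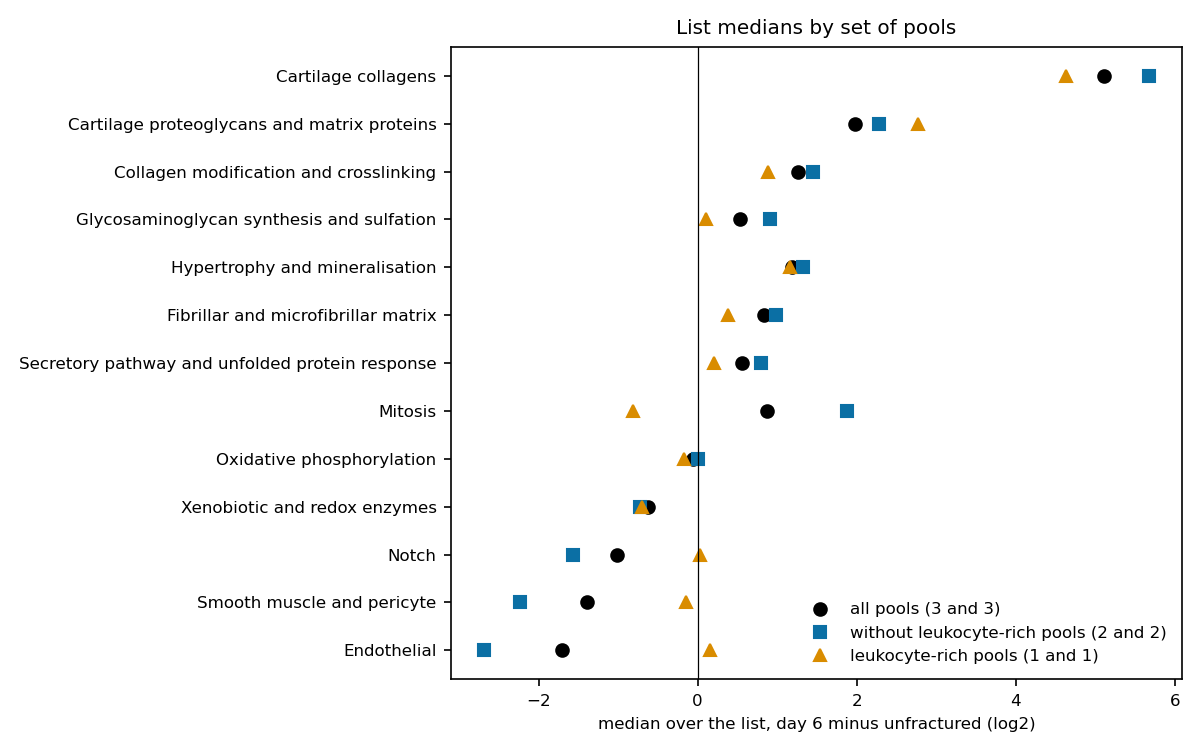
Median day 6 minus unfractured difference in log2 over the measured genes of 13 lists, from all pools (circles), without the leukocyte-rich pools (squares) and between the 2 leukocyte-rich pools alone (triangles). The cartilage collagen medians are 5.10, 5.67 and 4.63, whereas the endothelial medians are -1.70, -2.68 and 0.16 and the mitosis medians 0.87, 1.87 and -0.81.

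Few genes of cell division passed, as was so of all genes, of which 2.82% passed. None of 29 mitosis genes passed in limma, with 1 higher and none lower at an unadjusted p under 0.05 (12.0% and 8.94% of all genes). Without the leukocyte-rich arrays 8 rose, where 16.4% of all genes rose. A positive difference was seen in 27 of the 29. Their mean log2 intensity was 9.08, 9.24 and 9.17 at day 6, against 6.49, 8.40 and 9.87 in unfractured pools, lowest in unfractured replicate 1. Plk1, a mitotic kinase, had 9.05, 9.62 and 9.75 at day 6, against 5.17, 8.40 and 9.89 in unfractured pools, and Top2a, the topoisomerase of dividing cells, had 10.19, 9.54 and 9.46 at day 6, against 6.79, 9.35 and 10.87 in unfractured pools. Both were lowest in unfractured replicate 1 and overlapped. None of 33 DNA replication genes passed, with 3 lower and none higher at an unadjusted p under 0.05 (8.94% and 12.0% of all genes). Mcm5, of the replicative helicase, had 10.89, 11.09 and 10.72 at day 6, against 9.91, 10.86 and 12.34 in unfractured pools. Cdkn2b, an inhibitor of the G1 kinases, was the 1 of 21 G1 genes to rise, by 2.96 ± 0.54 (adjusted p = 0.0247). Ccnd1, cyclin D1, had 10.98, 10.75 and 10.56 at day 6, against 11.57, 12.29 and 11.72 in unfractured pools, lower in all day 6 pools without passing, at -1.10 ± 0.27 (adjusted p = 0.0701). The call of Cdkn2b ended without day 6 replicate 1 or 2 or 3 or unfractured replicate 1 or 2 or day 2 replicate 3 (adjusted p up to 0.116).

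Few inflammatory genes passed, as was so of all genes, of which 2.82% passed. None of 37 cytokines and chemokines passed in limma, with 5 higher and 1 lower at an unadjusted p under 0.05 (12.0% and 8.94% of all genes). Il11, a cytokine of bone and stroma, had 9.38, 9.92 and 9.56 at day 6, against 4.76, 8.02 and 6.58 in unfractured pools, a difference of 3.17 ± 0.90 (adjusted p = 0.0996) with no overlap. Of 28 interferon-response genes 1 fell, Ifi47, an interferon-induced GTPase, by 2.01 ± 0.41 (adjusted p = 0.0411), and 10 were lower and 2 higher at an unadjusted p under 0.05 (8.94% and 12.0% of all genes), with a median of -0.63. None of 20 macrophage genes had an unadjusted p under 0.05. C1qb, a complement subunit of macrophages, had 12.09, 8.21 and 8.98 at day 6, against 4.78, 5.54 and 12.67 in unfractured pools, which follows the leukocyte-rich pools and is also higher in the other 2 day 6 pools than in the other 2 unfractured pools. Nrn1, the secreted neuritin, was the 1 of 12 neural genes to rise, by 2.96 ± 0.51 (adjusted p = 0.0198), while Ntrk3, a neurotrophin receptor, had 5.76, 5.99 and 5.69 at day 6, against 9.92, 9.14 and 7.13 in unfractured pools, lower without passing, at -2.91 ± 0.74 (adjusted p = 0.075). Single pools decided some calls, those of Ifi47 and Nrn1 without day 6 replicate 1 or 2 or 3 or unfractured replicate 1 or 2 and that of Ifi47 without day 2 replicate 2 or 3. Their adjusted p reached 0.19 for Ifi47 and 0.0936 for Nrn1. Median scaling ended the call of Ifi47.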

How the data were processed

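RNA of sorted tomato-positive cells was amplified, biotin-labelled and hybridised to Illumina bead arrays, 1 array per pool, per the labels' protocols. The deposited table holds linear probe intensities without normalisation, and the deposited detection p-value of each probe, in steps of 1/798, from GenomeStudio per the submitters' processing notes (version not given). A second deposited table holds the authors' processed intensities, whose scale matches a quantile normalisation; it served as an alternative. Of 25697 probes 23978 had 1 gene symbol and 1719 none. Probe positions are not given, since no genome build was named.

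Intensities were background-corrected by normexp from the detection p-values with an offset of 16, quantile-normalised and log2-transformed (neqc, limma 3.58.1, R 4.3.3). A probe entered if 3 or more of the 9 arrays detected it at p under 0.05 (14519 probes, 858 without a symbol), and each gene was represented by its brightest probe on average (10073 genes). Group means were fitted by lmFit over the 9 arrays (6 residual degrees of freedom), with two-sided moderated tests by eBayes and Benjamini-Hochberg adjustment over all genes; a gene passed at an adjusted p under 0.05. The fit was tested on simulated data with independent noise on each array and no leukocyte-rich pools. That test therefore cannot show how such pools affect the fit. A gene is called undetected where none of its probes was. Where the probe shown was undetected on all 3 arrays of a group the text gives a lower bound of the fold, which sets the brighter group's mean against the dim group's, with each dim array at its detection level or its own signal, whichever was higher. Log2 differences understate changes of dim genes because of the offset.

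The 55 gene lists, the panel and the rules were chosen with earlier results of these data known. Genes named are the 20 largest rises and 20 largest falls that passed without overlap, list members that passed with up to 4 others per list, a panel of 28 genes, unlisted genes among the 60 smallest adjusted p and genes that passed in all alternatives; some that the rule allows are left out for length. Of the panel all were measured. Promoters came from RefSeq on GRCm38.p6. Replicate numbers are not stated to pair pools, and deviations from group means correlated between same-numbered day 6 and unfractured arrays at -0.28 to 0.26. Across genes, arrays within a group had correlations between 0.854 and 0.990, and none were identical.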

Additional observations from a re-analysis of the deposited data

Results flagged for a closer look

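The genes below were singled out because their day 6 level differed from the day 2 level after fracture in the test of that difference itself (limma, adjusted p under 0.05), among the 20 largest rises, the 20 largest falls and the panel. None of the 20 largest falls was among them. The comparison uses the same day 6 arrays as the one with unfractured periosteum, so it adds no independent view of the day 6 pools. Differences are in log2, and "at least" marks a fold against pools in which the probe was not detected.

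Of the cartilage matrix genes, Col9a2 was at least 335-fold higher at day 6 than at day 2, Ucma at least 70.3-fold, Matn1 at least 58.3-fold and Mia at least 54.6-fold. Col2a1 was higher by 8.13, Hapln1 by 7.47, Scrg1 by 6.19 and Acan by 6.16. Acan was the one of these whose day 2 pools, at 9.59, 9.28 and 7.52, all lay above the unfractured pools, at 4.86, 5.70 and 5.14. Of genes linked to enlarging cartilage, Panx3 was higher by 5.81, Col10a1 by 5.60, Ihh by 3.37 and Pth1r by 2.87, and Foxa3 was at least 19.1-fold higher. Of the signals and enzymes, Frzb was at least 21.1-fold, Aldoc at least 16.2-fold, Fgfr3 at least 7.99-fold and Postn at least 3.69-fold higher, and Car12 was higher by 3.08. Of the genes on no list, C1qtnf3 was higher by 5.55, Moxd1 by 5.35, Rtl3 by 5.21, Ncmap by 4.85 and Capn6 by 3.48, and Ppp1r1b was at least 24.9-fold higher.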

How the results depend on the processing

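In all, 22 alternatives were run, and 49 of the 284 genes passed in every one (48 rose, and Lypd2 fell). Among the 124 genes named by the rule that passed, 2291 pairs of gene and setting kept the call and 437 lost it, and none changed direction. The 6 arrays of the 2 groups alone ended 36 of these calls, namely those of B4galt7, Bmp4, Bpnt2, Cdkn2b, Chst11, Col11a1, Cspg4, Ctsk, Hapln3, Hoxa13, Hoxb4, Ifi47, Ihh, Inhba, Jam2, Loxl2, Map3k6, Mdk, Nqo1, P3h1, P4ha3, Papss2, Pgam1, Plod1, Plod2, Plod3, Pnpla2, Rspo3, S100b, Slc9a3r1, Ssr2, Tgfbi, Timp4, Tmem51, Unc45b and Vwf. Sex as a term ended 19 calls, of which Gsta3, Itga6 and P4ha2 are not in that list, weights by animals pooled ended 14, with Gsta3 and P4ha2 beyond it, and the replicate block ended 9, with Col2a1, Kcnma1 and P4ha2 beyond it. Median scaling ended 27, no detection filter 8, all probes 6, the deposited values 5 and no background correction 2. The 44 named genes that did not pass became calls in 188 pairs of gene and setting, 42 of them with estimated array weights, 33 without the leukocyte-rich arrays, 22 without unfractured replicate 3, and 18 each with the deposited values and without background correction. Of these genes, Mcm5 turned positive under median scaling (0.84), with estimated array weights (0.0896), without the leukocyte-rich arrays (0.52) and without unfractured replicate 3 (0.51), where its range over single pools left out was -0.70 to 0.51. Top2a turned negative without unfractured replicate 1 (-0.38, in a range up to 1.66), and neither passed there. Without the 3 leukocyte-rich arrays 3068 genes passed, with 1652 rises and 1416 falls, and with array weights estimated from the data 5354, 2852 and 2502. Fitting only the 6 arrays of the 2 groups gave 139 genes, 114 rises and 25 falls, and 133 of them were among the 284. Median scaling gave 270 genes, 97.4% of them rises against 77.8% in the main fit, and 7 falls. The deposited values gave 96 falls, sex as a term 34, and weights by animals pooled 39. Leaving out 1 pool at a time gave 53 to 1568 genes, 50 to 824 rises and 3 to 744 falls.

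Day 6 against day 2 gave 143 genes, 80 under median scaling, 3435 with estimated weights, 351 without the leukocyte-rich arrays and 47 to 189 with 1 pool left out. Day 2 against unfractured gave none in limma (1625 at an unadjusted p under 0.05), 5133 with estimated weights, 2095 without the leukocyte-rich arrays, and 0 to 924 with 1 pool left out. With the replicate number as a block day 6 against unfractured gave 319 genes, of them 238 rises and 81 falls, and day 6 against day 2 gave 89; same-numbered arrays did not deviate together (-0.28 to 0.26, against -0.29 to 0.31 for other numbers). Causes of these moves were not tested. Genes near the detection level have bounds only, and intensities near the brightest probe limit Col2a1, C1qtnf3, Col1a1 and Acta2.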

Other observations

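Genes expressed from 1 parental allele were gathered into a list after their values were seen, so the count is a description with no test. Of 39 measured imprinted genes 5 passed and all 5 rose, namely Mest, Peg3, Ddc, Grb10 and Phlda2, where 2.19% of all genes rose. The list median was 0.14, against 0.04 over all genes. Mest, a hydrolase-like protein of embryonic mesoderm, had log2 intensities of 13.39, 13.98 and 13.68 at day 6, against 9.14, 9.36 and 9.86 in unfractured pools, a difference of 4.23 ± 0.39 (adjusted p = 9.37e-04), and all 3 of its probes passed. At day 2 its levels were 8.38, 9.82 and 9.20. Peg3, a zinc finger protein of mesoderm-derived tissues, had 11.29, 11.25 and 11.39 at day 6, against 8.21, 7.87 and 6.93 in unfractured pools, a difference of 3.64 ± 0.39 (adjusted p = 0.00214), with 6.71, 7.68 and 7.64 at day 2. Ddc, the decarboxylase that makes dopamine, was at least 3.58-fold higher (adjusted p = 0.00124). Without the leukocyte-rich arrays 11 of the 39 rose and 5 fell, against 16.4% and 14.1% of all genes.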
